A study of Caenorhabditis elegans with 2 samples.

Results

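The regions described here are the AHA-1 ChIP-seq candidate peaks at genes for small nuclear RNAs (snRNAs) and small nucleolar RNAs (snoRNAs) of Caenorhabditis elegans. A peak was taken when its summit lay within 500 bp of an annotated snRNA or snoRNA gene and not within 200 bp of a tRNA gene, which gave 307 of the 30000 peaks called on both replicates together. The nearest such gene gave each peak its class, also for the 59 peaks that lay near several such genes. There were 20 peaks at 11 of 30 spliced-leader genes, 46 peaks at 36 of 99 other snRNA genes and 241 peaks at 195 of 346 snoRNA genes. In all, 242 of the 475 annotated genes had a peak and 58 of them had several. Of the 307 peaks, 29 pairs of neighbours overlapped, so the peaks are not independent regions.

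Chromatin from whole L4 larvae, with both sexes together, was precipitated and sequenced in 2 biological replicates of 1 group. All animals were of strain OP124, which is mutant for unc-119 (allele ed3 on chromosome III) and carries the transgene wgIs124 with eGFP-tagged aha-1. The labels name no treatment and no second condition. They list aha-1 under antibody and eGFP-aha-1 as what was targeted, so a contribution of untagged AHA-1 cannot be told apart. The control was not analysed here. The sequences that drive the transgene are not given in the labels, and whole animals do not show which cells a peak comes from. With peak lists alone, no marker of stage or tissue could be checked.

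AHA-1 is the worm counterpart of mammalian ARNT, a transcription factor with a basic helix-loop-helix and PAS domains that binds DNA in pairs with HIF-1, AHR-1 or CKY-1, and pairs with HIF-1 recognise RCGTG (ACGTG or GCGTG). snRNAs are the RNA core of the spliceosome, spliced leaders (sls genes) are snRNA-like donors that are trans-spliced onto the 5′ ends of worm mRNAs, and snoRNAs guide methylation and pseudouridylation of ribosomal RNA. Genes for snRNAs and spliced leaders are read from compact promoters with a proximal sequence element, which the SNAPc complex binds a short way upstream of the start. Many worm snoRNA genes lie inside introns of protein-coding genes and are processed from the host transcript, while others have promoters of their own, some of them built like tRNA promoters with box A and box B, to which TFIIIC binds.

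Of the 37 peaks in the authors' list thresholded by reproducibility (the IDR list), 24 fell just upstream of these genes. That list held 1.77% of all candidates. Sequences are shown first because 3 sets of letters recurred in those upstream stretches. All were read from the RefSeq genome of assembly WBcel235, and the letters were chosen after the sequences had been seen. The first set is AACCC followed after 6 bases by TGTC, in capitals in the stretches from 100 to 31 bases upstream of the gene start on the gene's strand. They are shown for genes of each class: sup-6, known from suppressor mutations as a U1 snRNA gene, and the snRNA genes R07E5.16 (WBGene00014543) and F54D8.7 (WBGene00195000), then the snoRNA genes Y53F4B.47 and ZK994.7, then the spliced-leader gene sls-2.8.
sup-6 (chrII:12944998-12945067, minus strand): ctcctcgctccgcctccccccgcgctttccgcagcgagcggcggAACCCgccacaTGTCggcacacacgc
R07E5.16 (chrIII:10989579-10989648, plus strand): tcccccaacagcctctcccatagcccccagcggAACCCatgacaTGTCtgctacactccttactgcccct
F54D8.7 (chrIII:5080929-5080998, minus strand): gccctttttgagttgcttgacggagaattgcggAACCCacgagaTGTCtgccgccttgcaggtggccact
Y53F4B.47 (chrII:15025924-15025993, minus strand): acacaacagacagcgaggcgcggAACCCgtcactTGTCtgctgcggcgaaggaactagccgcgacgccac
ZK994.7 (chrV:8500479-8500548, plus strand): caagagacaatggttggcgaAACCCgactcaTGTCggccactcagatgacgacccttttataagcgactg
sls-2.8 (chrIII:12250365-12250434, plus strand): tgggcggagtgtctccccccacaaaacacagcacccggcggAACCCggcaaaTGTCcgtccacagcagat

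Among all 475 genes, these letters stood in the 100 bases upstream at 24 of 99 other snRNA genes, 9 of 30 spliced-leader genes and 27 of 346 snoRNA genes, 60 in all (12.6%). Upstream of 29773 starts of protein-coding transcripts they stood at 11 (0.0369%). The first base lay at a median of -59 bp from the gene start, with quartiles of -61.25 and -58. Near-identical copies share their spacing, and 36 of the 60 genes have such a copy. The 24 without one had the same median, with quartiles of -61 and -58. The sequences shown were taken for their peaks and lie more widely, from -80 to -56 bp. A match is a description of the sequence and not a mapped binding site.

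The second set is CCTCGAAA, which was found upstream of 4 genes, all of them near-identical spliced-leader genes (sls-2.1 to sls-2.4) with the first base at -58 in each. It stood upstream of 0.205% of protein-coding transcript starts. It is shown in capitals, from 100 to 31 bases upstream, for sls-2.2 and sls-2.1, which carried the strongest spliced-leader peaks.
sls-2.2 (chrII:5543498-5543567, plus strand): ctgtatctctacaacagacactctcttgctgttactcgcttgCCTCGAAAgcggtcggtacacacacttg
sls-2.1 (chrII:5844765-5844834, plus strand): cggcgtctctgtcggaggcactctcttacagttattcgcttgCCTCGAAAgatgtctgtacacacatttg

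The third set is GTTCNANNC, the central letters of a box B, found upstream of 33 snoRNA genes and 1 other snRNA gene (7.16% of the 475) and upstream of 1.52% of protein-coding transcript starts. Its first base lay at a median of -14.5 bp, close to the snoRNA start. The 75 bases before the gene start are shown for 5 snoRNA genes with a strong peak, with these letters in capitals.
F32E10.10 (chrIV:7574047-7574121, plus strand): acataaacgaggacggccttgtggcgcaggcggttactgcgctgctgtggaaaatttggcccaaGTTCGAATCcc
C04G6.12 (chrII:5105232-5105306, minus strand): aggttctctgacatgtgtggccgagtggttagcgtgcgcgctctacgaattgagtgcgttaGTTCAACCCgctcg
F55A11.10 (chrV:11782917-11782991, plus strand): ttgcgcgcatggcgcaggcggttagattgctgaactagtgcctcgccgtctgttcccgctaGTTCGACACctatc
F11A10.9 (chrIV:12086634-12086708, plus strand): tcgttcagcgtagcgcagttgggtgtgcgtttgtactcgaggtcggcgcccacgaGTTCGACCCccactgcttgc
Y75B12B.12 (chrV:15191094-15191168, minus strand): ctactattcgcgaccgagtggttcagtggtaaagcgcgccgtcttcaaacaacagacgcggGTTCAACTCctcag

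Letters of a box A, also chosen after the sequences had been seen and searched as TNGCNNAG on the gene's strand, also stood in the 100 bases upstream of 15 of the 34 GTTCNANNC genes (44.1%). They stood upstream of 37 of 377 small RNA genes with none of the 3 sets (9.81%), of 0 of 60 AACCC genes, and of 3.34% of protein-coding transcript starts. At 14 genes TNGCNNAG came before GTTCNANNC, with a median of 44 bases from the first base of one to the first base of the other.

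Peaks were ranked by the signal that the authors' peak caller gave them. The labels do not state its scale, so it serves only to order and describe peaks within a list, and values of different lists are not on a common scale. The 30000 candidates had a median signal of 7.08 and the 307 peaks at small RNA genes had a median of 9.32, which is a median rank of 7477 against 15000.5. The authors' IDR list, named for reproducibility between replicates, holds the 530 peaks of highest pooled signal. Being in it and ranking high by signal are thus the same measure, and it does not show that each peak was reproduced. The list held 37 of the 307 (12.1%, exact 95% binomial interval 8.63% to 16.2%), against 1.77% of all candidates. Of the candidates elsewhere, 493 of 29693 were in that list (1.66%), and of those within 200 bp of a tRNA gene 22 of 337 (6.53%). With the threshold moved down to as many candidates again as the list holds, 66 of the 307 passed, against 3.53% of all, and 18 belonged to the stronger IDR peaks, those above the median of the list, against 0.883% of all. The intervals count peaks and cover counting error only. The lists hold no read numbers, so sequencing depth is unknown.

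The intervals of the 3 classes overlapped. The list held 5 of 20 spliced-leader peaks (25%, 8.66% to 49.1%), 5 of 46 other snRNA peaks (10.9%, 3.62% to 23.6%) and 27 of 241 snoRNA peaks (11.2%, 7.51% to 15.9%). Median ranks were 6959.5 for spliced-leader peaks, 10621.5 for other snRNA peaks and 6522 for snoRNA peaks. In each class a small number of strong peaks stood beside a long tail of weak ones.

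**Figure D1:**
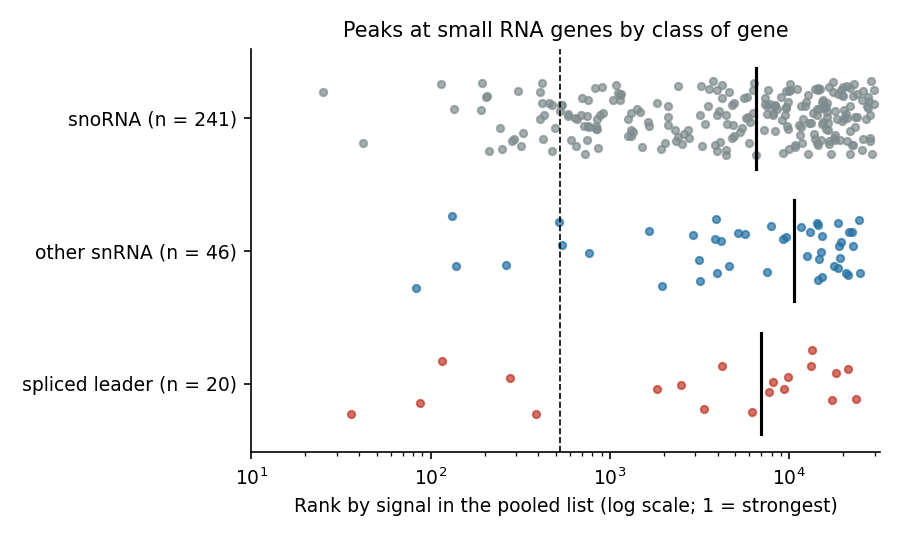
Rank by signal in the pooled list (log scale, 1 is the strongest) of the 307 peaks, 1 point per peak, by class of the nearest small RNA gene; vertical bars are class medians and the dashed line marks the end of the IDR list at 530. Each class spreads widely, down to rank 23586 for spliced leaders, 24854 for other snRNA genes and 29592 for snoRNA genes, and 5 spliced-leader, 5 other snRNA and 27 snoRNA peaks lie left of the line.

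Strong peaks lay mostly just upstream of the gene start, and the shares differed more by position than by class. Of 82 peaks with the summit 1 to 100 bp upstream of the gene start, 24 were in the IDR list (29.3%, 19.7% to 40.4%), with a median rank of 978. Of 48 with the summit inside the gene it was 6 (12.5%, 4.73% to 25.2%), with a median rank of 6999.5. Of 71 lying 101 to 500 bp upstream it was 5 (7.04%, 2.33% to 15.7%), and of 106 downstream it was 2 (1.89%, 0.229% to 6.65%), a share close to that of all candidates. The interval of the first class does not overlap those of the 2 outer classes, and it overlaps that of peaks inside the gene. The intervals count peaks, some of which overlap each other, so this is a description and not a test.

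The same order of place appeared within snoRNA genes, where 17 of 68 peaks just upstream, 4 of 36 inside, 5 of 58 farther upstream and 1 of 79 downstream were in the IDR list. Among other snRNA genes it was 4 of 10 just upstream against 1 of 9 inside and 0 of 27 elsewhere. Among spliced-leader genes 3 of 4 just upstream were in the list. Summits are limited in precision, because 29975 of the 30000 lie within 1 bp of the middle of a peak and 29972 peaks are 316 bp wide. The median summit of the 37 IDR peaks lay at -44 bp from the gene start, at -31.5 bp in the replicate 1 counterparts and at -52 bp in the replicate 2 counterparts, with median shifts of 23 and 12 bp.

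**Figure D2:**
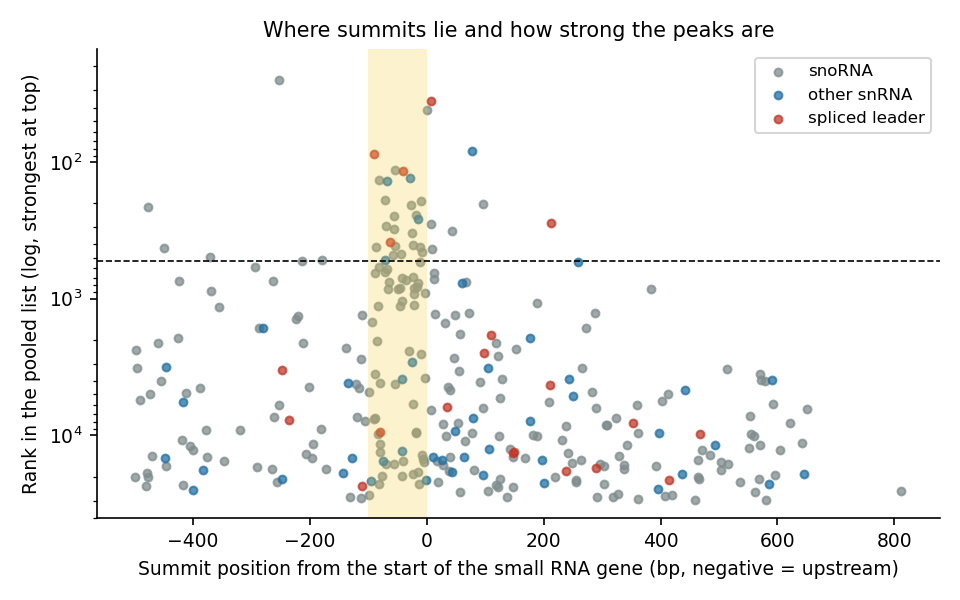
Summit position from the start of the small RNA gene (bp, negative is upstream on the gene's strand) against rank by signal in the pooled list (log scale, strongest at the top) for the 307 peaks, coloured by class; the shaded band is the 100 bp upstream and the dashed line is the end of the IDR list at 530. Of the 37 points above the line, 24 lie in the band.

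**Figure D3:**
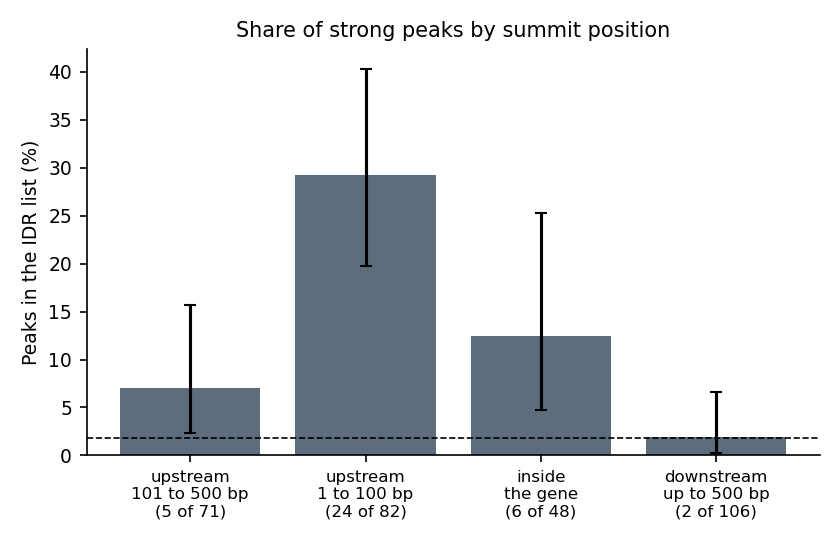
Percent of peaks in the IDR list by position of the summit relative to the small RNA gene; bars are shares, whiskers are exact 95% binomial intervals that count peaks only, and the dashed line is the 1.77% of all candidates. The share is 29.3% in the 100 bp upstream and 1.89% downstream.

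At the spliced-leader genes, all strong peaks were at sls-2 genes, which make the SL2-type leaders used on downstream genes of operons. Of 18 sls-2 genes 11 had a peak and 4 had an IDR peak. Of 12 sls-1 genes, which make the SL1 leader, 0 had a peak. The sls-1 genes are near-identical repeats, and the labels do not say how reads that fit several copies were placed, so a lack of peaks there cannot be read as a lack of binding.

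The strongest was the peak at sls-2.2 (chrII:5543448-5543763), rank 36, with the summit 8 bp into the gene and a signal of 71.6. Its counterparts had a signal of 31.3 (rank 52) in replicate 1 and 36.5 (rank 47) in replicate 2. A second, overlapping peak of the pooled list at 212 bp from the sls-2.2 start ranked 279 with a signal of 31.5. It overlapped the same strongest peak in each replicate, and a weaker peak near its own summit was listed at rank 1499 in replicate 1 (211 bp from the gene start) and at rank 422 in replicate 2 (220 bp). The part beyond the gene was thus weaker than the part on the gene in both replicates.

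The peak at sls-2.1 (chrII:5844617-5844932) ranked 87 with a signal of 49.8 and its summit at -90 bp. Its counterparts had a signal of 21.7 (rank 135) in replicate 1 and 30.6 (rank 75) in replicate 2. The peak at sls-2.4, on chromosome I, ranked 116 with a signal of 44.6 and its summit at -40 bp, which is also -577 bp from the start of egg-5, a gene of the oocyte-to-embryo transition. Its counterparts had 33.9 (rank 42) in replicate 1, with the summit at -27 bp, and 19.1 (rank 287) in replicate 2, with the summit at 179 bp, past the gene's end. At sls-2.4 the replicates thus placed the peak on different sides of the gene. The peak at sls-2.8 on chromosome III ranked 386 with a signal of 28.4 and its summit at -62 bp, next to the AACCC letters shown above. Its counterparts had 15.9 (rank 328) in replicate 1 and 12.6 (rank 981) in replicate 2, and the summit also lay at -239 bp from the start of the protein-coding gene tim-1, a homologue of the clock gene timeless. All 5 spliced-leader IDR peaks, at 4 genes, had counterparts within the top 1000 of both replicates. Both peaks at sls-2.2 shared the same counterparts, and the replicate 1 peak near the second summit, at rank 1499, was outside that top.

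The remaining spliced-leader peaks were outside the IDR list, at ranks from 1833 to 23586. The fourth gene of the CCTCGAAA set, sls-2.3 (named after its values were seen), had a single peak, rank 9390, with its summit at -79 bp. Its counterparts ranked 15738 and 16572. The 4 genes of this set are at least 90% identical in sequence, so reads could be split between them, and the difference in rank between sls-2.3 and the other 3 was not tested.

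At the other snRNA genes, 5 peaks were in the IDR list, at 5 of the 99 genes (5.05%). All 5 were among the 71 genes with near-identical copies (7.04%), and 0 of the 28 without such a copy had one. With so few peaks this difference is a description and was not tested. The labels do not say how reads that fit several copies were placed. Which copy of a family carries a peak, here and below, thus cannot be read as binding at that copy alone. The peak at sup-6 (chrII:12944731-12945046) ranked 83 with a signal of 50.4 and its summit 78 bp into the gene, which lies inside F58G1.7 on the same strand. Its counterparts had a signal of 21.7 (rank 136) in replicate 1 and 31.0 (rank 71) in replicate 2. Of the 12 genes at least 90% identical to it, itself included, 8 had a peak and 8 had the AACCC letters, yet only the peak at sup-6 was in the IDR list. The peak nearest to sup-39, another U1 gene of this family, was just outside that list at rank 541 with a signal of 25.01, and its summit lay 259 bp from the gene start, beyond the gene's end.

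The peak at T11F9.15 (WBGene00014291, chrV:11979932-11980247) ranked 132 with a signal of 43.0 and its summit at -28 bp. Its signal was 9.90 (rank 1158) in replicate 1 and 26.6 (rank 108) in replicate 2. That summit also lay at -367 bp from the start of snr-4, which encodes an Sm protein of the snRNA particles, and the small RNA gene and the protein gene cannot be told apart as its target. The peak at R07E5.16 (WBGene00014543, chrIII:10989454-10989769) ranked 139 with a signal of 42.3 and its summit at -67 bp, on the first base of the AACCC letters shown above. Its counterparts had 22.4 (rank 125) and 18.9 (rank 294). The gene lies inside dhc-4, a dynein heavy chain gene, and belongs to a family of 21 near-identical genes of 97 to 102 bases, of which 8 had a peak and 2 an IDR peak.

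The other of those 2 was at F54D8.7 (WBGene00195000), rank 519 with a signal of 25.6, the second-last peak of these genes inside the IDR list. Its counterparts had 7.45 (rank 2819) in replicate 1 and 16.4 (rank 440) in replicate 2. The peak at F38E11.11 (WBGene00014366) ranked 263 with a signal of 32.3, with 7.61 (rank 2647) in replicate 1 and 21.7 (rank 204) in replicate 2. The summit at F38E11.11 also lay at -588 bp from the start of the protein-coding gene F38E11.9. That at F54D8.7 lay at -755 bp from the start of the protein-coding gene cox-6A. At both, the small RNA gene and the protein gene cannot be told apart as targets. Of the 5 IDR peaks at these snRNA genes, 4 ranked better in replicate 2 and 2 were in the top 1000 of both replicates.

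Of the 15 strongest peaks at snoRNA genes, 9 had the summit in the 100 bp upstream of the snoRNA gene, 3 inside it, 2 farther upstream and 1 past its end. A protein-coding promoter window held 4 of the 9, 1 of the 3 and both of the 2, so for these 7 the small RNA gene and the protein gene cannot be told apart as targets. The peak at F54E7.10 (chrIII:5679077-5679183) was the strongest of all 307, rank 25 with a signal of 79.1. Its counterparts had 34.0 (rank 40) and 44.2 (rank 31). The summit lay at -253 bp from the snoRNA, which is inside the ribosomal protein gene rps-12, and it fell in the promoter windows of rps-12 and ska-3, a kinetochore gene. The windows run from 1000 bp upstream to 500 bp downstream of a protein-coding start.

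The peak at D2021.6 (chrX:8546046-8546361) ranked 42 with a signal of 69.2, its summit on the first base of the snoRNA and at -183 bp from the start of sdha-1, a subunit gene of mitochondrial succinate dehydrogenase. Its counterparts had 34.8 in both replicates, at ranks 37 and 55. The peak at F59C6.15 ranked 115 with a signal of 44.8 and its summit at -54 bp, with 27.3 (rank 78) and 21.7 (rank 205) in the replicates. The peak at Y53F4B.47 (chrII:15025817-15026132) ranked 136 with a signal of 42.7, its summit at -82 bp, next to the AACCC letters, and at -139 bp from the start of cmtr-1, an mRNA cap methyltransferase gene. It had 15.7 (rank 339) and 26.1 (rank 116) in the replicates. All 4 of these loci ranked in the top 400 or better in both replicates, and 3 of the 4 summits lay within 100 bp of the snoRNA start or on it.

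The next snoRNA peaks had signals between 30.5 and 36.2 in the pooled list. ZK265.10 ranked 190 with the summit at -72 bp (ranks 117 and 415 in the replicates). Y23H5B.10 ranked 193 with the summit at -9 bp, but its counterparts were far apart at ranks 147 and 2051. B0334.12 ranked 204 with a summit 96 bp from the gene start, just past the gene's end, on the opposite strand of the potassium channel gene twk-5 (ranks 476 and 315).

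F32E10.10 ranked 207 with the summit at -26 bp (ranks 460 and 159), and the box B letters shown above began at -11 bp. B0041.9 ranked 212 with the summit at -476 bp and in the promoter windows of its host rpl-4, a ribosomal protein gene, and of B0041.8 (ranks 639 and 101). ZK484.9 ranked 245 with the summit at -18 bp, opposite to the transporter gene haf-9 (ranks 435 and 554). ZK20.9 ranked 250 with the summit at -56 bp (ranks 825 and 157).

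C04G6.12 ranked 284 with the summit 7 bp into the snoRNA gene and opposite to the MAP kinase gene mpk-2 (ranks 231 and 426). Y37E3.20 ranked 292 with the summit at -70 bp and at -407 bp from a start of its host pcyt-2.1, a phospholipid synthesis gene (ranks 445 and 2700). ZK994.7 ranked 309 with the summit at -56 bp, inside the peroxidasin gene pxn-1 and 5634 bp from its nearest annotated start (ranks 548 and 303). Y74C9A.6 ranked 320 with the summit 43 bp into the gene (ranks 551 and 416). Apart from B0041.9 and B0334.12, these summits lay in the gene or between -72 bp and its start.

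Peaks at snoRNA genes were also counted by host gene. Of 130 snoRNA genes outside protein-coding genes, 86 had a peak (66.2%) and 15 an IDR peak (11.5%). Of 183 on the same strand inside a host, 94 had a peak (51.4%) and 9 an IDR peak (4.92%). Of 33 inside a gene of the opposite strand, 15 had a peak and 3 an IDR peak.

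The same-strand hosts of the 9 IDR peaks were the ribosomal protein genes rps-12, rpl-4 and rpl-24.1, and pcyt-2.1, pxn-1, F55A11.6, rbm-34 (an RNA-binding protein gene), W08G11.3 and tmem-107 (a transmembrane protein gene). At the 3 ribosomal protein hosts the summit lay at -253, -476 and -371 bp from the snoRNA and within the promoter window of the host. At 5 of the other 6 it lay at -70 to -12 bp, and at tmem-107 9 bp into the snoRNA gene. The windows of pcyt-2.1, F55A11.6 and tmem-107 also held the summit, so 6 of the 9 lay in the promoter window of their host. The window of another gene held the summit as well at rps-12 (ska-3), rpl-4 (B0041.8), rpl-24.1 (rps-10), F55A11.6 (F55A11.11) and tmem-107 (the ribosomal protein gene rps-26). Over all classes, 21 of 127 peaks within a protein-coding promoter window were in the IDR list (16.5%), against 2.79% of all candidates there. Outside such windows it was 16 of 180 (8.89%), against 1.15% of all candidates there.

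Genes with the upstream letters had strong peaks more often than genes without, and the letters were picked on these sequences, so the figures are a description. With AACCC and TGTC upstream, 32 of 60 genes had a peak (53.3%) and 10 an IDR peak (16.7%), and the median rank of the best peak was 3020.5. With GTTCNANNC, 27 of 34 had a peak (79.4%) and 7 an IDR peak (20.6%), with a median best rank of 846. With CCTCGAAA, 4 of 4 had a peak and 3 an IDR peak. With none of the 3 sets, 179 of 377 had a peak (47.5%) and 16 an IDR peak (4.24%), with a median best rank of 7241.

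Counting only genes without a near-identical copy, 6 of 24 AACCC genes (25%), 7 of 32 GTTCNANNC genes (21.9%) and 14 of 312 with none (4.49%) had an IDR peak. Among snoRNA genes alone, the counts were 6 of 27 with AACCC, 7 of 33 with GTTCNANNC and 14 of 286 with none (4.90%). Of same-strand intragenic snoRNA genes with none of the sets, 5 of 163 had an IDR peak (3.07%), and 3 of those 5 were at the ribosomal protein hosts.

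**Figure D4:**
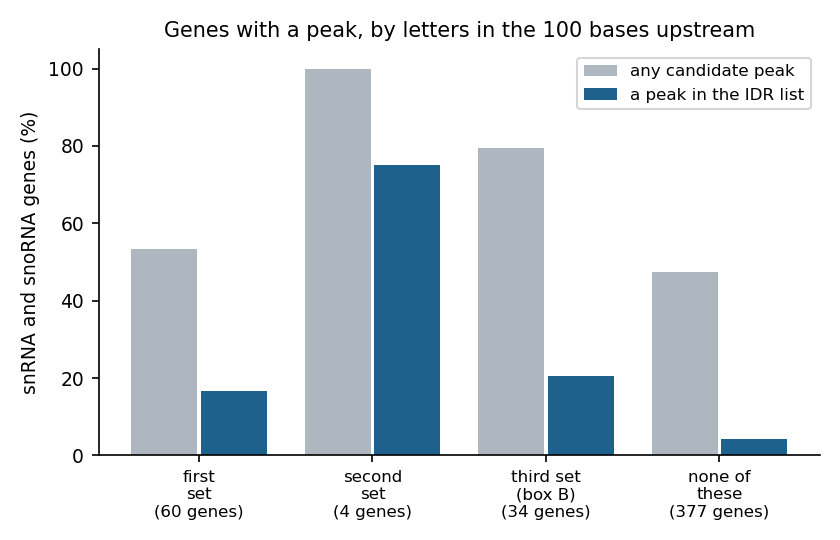
Percent of the 475 snRNA and snoRNA genes with any candidate peak (grey) and with a peak in the IDR list (blue), by letters in the 100 bases upstream: the first set is AACCC followed after 6 bases by TGTC, the second CCTCGAAA, the third GTTCNANNC (box B). The blue bars are 16.7%, 75%, 20.6% and 4.24%, and the second set rests on 4 genes.

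Away from these genes, few candidates with the letters were in the IDR list, and differences between the sets of letters were not tested. Within 50 bp of the summit, on either strand, AACCC followed after 6 bases by TGTC was found in 63 of the 30000 candidates. Of those, 15 were peaks at small RNA genes, of which 8 were in the IDR list and the median rank was 519. The other 48 had 0 in the list and a median rank of 14694. GTTCNANNC was found in 1114 candidates: 29 at small RNA genes with 8 in the list, and 1085 elsewhere with 19 in the list (1.75%), a share close to the background. Of those 1085, 121 lay within 200 bp of a tRNA gene. Of the 19 in the list, 9 lay farther from tRNA genes, so the 1.75% mixes peaks near tRNA genes with others. CCTCGAAA was found in 93 candidates: 4 at small RNA genes with 2 in the list, and 89 elsewhere. Of those 89, 4 were in the list (4.49%), a share above the background that rests on 4 peaks.

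The AHA-1 pair letters RCGTG were less frequent at the strong small RNA peaks than at other strong peaks. They stood within 50 bp of the summit, on either strand, at 60 of the 307 peaks (19.5%) against 16.4% of all candidates. Among IDR peaks it was 11 of 37 at small RNA genes (29.7%) against 251 of 493 elsewhere (50.9%). By class it was 1 of 5 at spliced leaders, 0 of 5 at other snRNA genes and 10 of 27 at snoRNA genes. The palindrome CACGTG, which contains ACGTG on both strands, stood at 1 of the 37. TATAAA stood at 6 of 37 (16.2%), against 4.91% of all IDR peaks and 10.1% of all candidates. Median GC content of these windows was 51.5% for the 37 and 50.5% for all IDR peaks. These differences were not tested.

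For comparison with the upstream stretches, the 101 bases around the summit are shown on the plus strand for F54E7.10, the strongest peak, and Y53F4B.48, the IDR peak of these genes with the largest difference in rank between replicates, with each RCGTG (or CACGY on the other strand) in capitals.
F54E7.10 (chrIII:5679075-5679175, plus strand): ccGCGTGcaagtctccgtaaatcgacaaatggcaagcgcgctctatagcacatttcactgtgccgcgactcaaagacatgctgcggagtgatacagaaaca
Y53F4B.48 (chrII:15166022-15166122, plus strand): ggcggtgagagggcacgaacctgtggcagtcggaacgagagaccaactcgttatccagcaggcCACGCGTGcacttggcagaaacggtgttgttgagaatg

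In replicates, counterparts with at least 1 bp of overlap were found in both lists for 178 of the 307 peaks (58%), against 26.5% of all candidates. In the top 1000 of both lists it was 32 (10.4%), against 1.49%. By class these 32 were 7 of 20 spliced-leader, 3 of 46 other snRNA and 22 of 241 snoRNA peaks. Overlapping pooled peaks can have the same counterparts: counted once per pair of counterparts, the 32 were 27, against 399 for all candidates in place of 446, and the 7 spliced-leader peaks were 4. The 178 with both counterparts were 158. Since the pooled and IDR lists were made from the same replicates, this overlap is no independent support.

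Of the 37 IDR peaks, 36 had a counterpart in both, 22 of them in the top 1000 of both (59.5%), against 332 of 493 other IDR peaks (67.3%). The exception was F47G4.9, rank 455, at rank 237 in replicate 2 with no counterpart in replicate 1. Over peaks with both counterparts, Spearman's rho between the replicate ranks was 0.661 for the 178 peaks at small RNA genes, 0.237 for the 36 IDR peaks among them and 0.316 for 7957 candidates. Peaks of one library share its depth, so these values describe the lists only.

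Among the IDR peaks, the 5 largest rank differences were at Y53F4B.48 (ranks 175 and 6020 in replicates 1 and 2), F38E11.11 (2647 and 204), F54D8.7 (2819 and 440), Y37E3.20 (445 and 2700) and Y23H5B.10 (147 and 2051). Weaker peaks differed more, up to ranks 29569 and 1621 at ZK546.18, named after its values were seen. At the 7 IDR peaks with GTTCNANNC upstream, 6 ranked better in replicate 1. Applied to each replicate's own list, the rule gave 297 peaks in replicate 1, with 30 in its top 530 (10.1%), and 293 in replicate 2, with 33 (11.3%). Spliced-leader peaks in those tops were 4 of 16 and 4 of 19, other snRNA peaks 3 of 39 and 6 of 44, and snoRNA peaks 23 of 242 and 23 of 230.

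**Figure D5:**
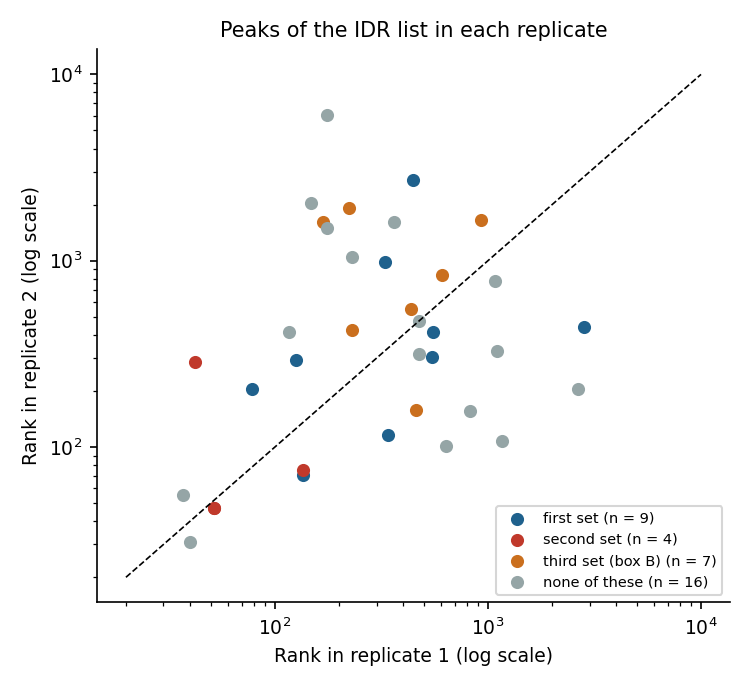
Rank in replicate 1 against rank in replicate 2 (both log scale) of the 36 IDR peaks at small RNA genes with a counterpart in both, coloured by the letters upstream of the gene (the first set is AACCC with TGTC, the second CCTCGAAA); the dashed line is equal rank, and the 2 peaks at sls-2.2 coincide. Of the 7 points with box B letters 6 lie above the line, which is a better rank in replicate 1, and the point farthest above it is Y53F4B.48 at 175 and 6020.

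The threshold of the IDR list fell among peaks of similar signal. The last peaks inside were F54D8.7 at 25.6 and Y17G7B.25 at 25.4 (rank 524), and the first outside were F37F2.4 at 25.2 (rank 532) and sup-39. At the 500 bp limit, the farthest summits inside were 498 bp from F19H8.6 and 497 bp from W07G1.24, and the nearest outside were 503 bp from B0379.13 and 508 bp from Y77E11A.21. None of these 4 peaks was in the IDR list, and their signals lay between 5.16 and 7.28.

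Genes for the proteins that make or carry these RNAs were listed as well. Of 40 listed proteins 33 were in the annotation, 26 had a candidate in the promoter window and 2 an IDR peak (7.69%), against 4.47% of 9351 protein-coding genes with a candidate, so 2 genes do not set the list apart. One was ints-4, a subunit of the Integrator complex that cleaves snRNA 3′ ends, with a peak at rank 80 and a signal of 51.5 (ranks 100 and 113 in the replicates). The other was snr-4, through the peak it shares with T11F9.15. By list it was 1 of 10 Integrator genes, 1 of 6 Sm genes, 0 of 3 SNAPc genes and 0 of 6 snoRNP genes with a candidate.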

How the data were processed

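ChIP-seq of eGFP-tagged AHA-1 was analysed in 2 biological replicates of 1 group, numbered as in the labels, which give library fragments of 150 to 350 bp. The ce11 peak lists were used: 1 per replicate, 1 called on both replicates pooled, and the IDR list, all as deposited. By name, the replicate 1 list holds peaks, while the replicate 2 and pooled lists hold peaks and background as input for IDR. The 2 replicate lists may thus differ in kind. The signal, the −log10 q-value and the summit offset of each peak are the authors' deposited values. Neither aligner nor peak caller is given in the sources. The q-value reached its maximum at 928 pooled peaks, so ranking used the signal. The ce10 lists were not used here, and no coordinate was carried between assemblies.

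Genes came from Ensembl release 115 for WBcel235 and sequences from RefSeq's genome of that assembly. A counterpart is the strongest overlapping replicate peak. Copies are small RNA genes at least 90% identical. As several genes share a name, identifiers are given for some. Upstream letters were searched on the gene's strand, summit windows of 101 bp on both strands. Assignment of summits to genes was tested on simulated data. Intervals are exact Clopper-Pearson at 95%. No test was made: peaks are not replicates, and with 1 group there is no condition to compare. The labels do not say whether the replicates came from separate cultures.

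The members and gene lists were chosen with earlier results of these data known. Named are all snRNA genes with an IDR peak, the 15 strongest snoRNA peaks, peaks next to each limit, the 5 largest rank differences, hosts of IDR snoRNA peaks and listed protein genes with an IDR peak. Other names were chosen after their values were seen. Alternatives covered the distance to the gene, tRNA neighbours, 1 peak per gene, each replicate alone, the strength threshold, the overlap rule, the ranking value and the motif window. Python 3.11.15, pandas 2.3.3, numpy 2.4.6, pyfaidx 0.9.0.4, matplotlib 3.10.9, scipy 1.17.1 and edlib (for identity between genes) were used.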

Additional observations from a re-analysis of the deposited data

How the results depend on the processing

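No paired analysis was possible because there was 1 group, whose replicates have no partner. The 37 IDR peaks became 66 with the threshold moved down to as many candidates again (background 3.53%) and 18 among the IDR peaks above the list's median (0.883%), and the 27 snoRNA peaks 54 and 11. With each replicate left out in turn, the median percentile of signal, 75.08, was 72.2 to 72.93, and the IDR count, replaced by the other replicate's top 530, was 30 to 33, with 7 to 10 snRNA and 23 snoRNA peaks. Within 200 bp there were 203 peaks (median percentile 82.72, 39 with RCGTG), 33 of them in the IDR list (16.3%), and within 1000 bp 478 (69.80, 92 with RCGTG), 49 in the list (10.3%). Keeping peaks near tRNA genes gave a percentile of 75.63, and 1 peak per gene 85.05. The 60 peaks with RCGTG became 32 within 25 bp and 122 within 100 bp of the summit. The 32 in the top 1000 of both replicates became 20 with summits within 100 bp. Chosen after seeing the data: summits inside the gene or at most 100 bp upstream left 130 peaks (percentile 91.65, 31 with RCGTG, 21 in both tops), 30 in the IDR list (23.1%), and peaks outside protein-coding promoters left 180 (72.84, 34, 16), with 16 in the list, 5 snRNA and 11 snoRNA (8.89%). Replicate summits and protein genes in each replicate's top 530 (2 to 3 genes) were also added then. In the settings not named the values stayed within the limit for a change.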

Other observations

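The SmY RNA genes (smy), small nuclear RNAs of nematodes linked to trans-splicing, carried no IDR peak. They are split by the annotation between the snRNA and snoRNA biotypes. Of 12 genes 5 had a peak. The best were overlapping peaks at smy-2 (rank 653, signal 22.9) and smy-1 (rank 765, signal 21.5), neighbours on chromosome IV inside C33A12.3, which both overlapped the same strongest peak at rank 416 in replicate 1 and 529 in replicate 2. The others lay at rank 5656 or worse. smy-2 has the AACCC letters upstream and smy-1 does not.

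Among all words of 6 bases within 50 bp of the summit, the largest excess of share was that of AACCCG (or its reverse complement), found at 8.79% of the 307 peaks against 1.88% of all candidates, and at 12 of the 37 IDR peaks (32.4%) against 4.15% of all IDR peaks. GCCGAC followed, at 8.79% against 2.24%, and at 9 of the 37 (24.3%). Protein genes of the lists just below the IDR threshold were nol-58, a box C/D snoRNP protein gene (rank 706, ranks 3259 and 286 in the replicates), and snr-1, an Sm protein gene (rank 774, ranks 1025 and 830). fib-1, the fibrillarin gene, was at rank 2481.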
